A study of Homo sapiens with 2 samples.

Results

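ATF4 and its partner stress response factors are described here as 10 genes of 26260 gene symbols in the deposited table: the transcription factor genes ATF4, ATF5, ATF3, CEBPB, CEBPG and DDIT3, and TRIB3, CHAC1, ASNS and VLDLR. The members were chosen by name, with earlier results of these same libraries in view, so their expression values are a description and no support for a choice made from them. The HCT-116 line, long established from a human colorectal carcinoma, gave 1 library labelled as treated and 1 library labelled as control. Both sample titles carry the number 3, and no other library is in the deposited table. Whether the shared number marks a pairing of the 2 cultures is not known. The protocol text is the same on both samples and tells of serum-starved cells that received lysophosphatidic acid (LPA, a phospholipid that signals through G protein-coupled receptors) at 10 µM for 24 h. The labels do not say what the control cells received, or whether they were serum starved as well. With 1 library in each group there is no replicate error and no test, and the differences below are differences between 2 libraries.

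ATF4 is the main effector of the integrated stress response. When a kinase phosphorylates the initiation factor eIF2, as in amino acid shortage or endoplasmic reticulum stress, most translation slows while ATF4 mRNA is translated more, because of short reading frames in its leader. ATF4 binds DNA as a bZIP protein paired with a C/EBP partner, at composite sites called CARE, and drives genes of amino acid supply and of its own feedback. RNA levels, the quantity measured here, do not show how much ATF4 protein was made.

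The sequences shown first are the CARE letters near the start sites of members, since this is the site at which ATF4 pairs with a C/EBP factor. The letters TGATGNAA were searched on both strands in the 250 bases before each RefSeq start (GRCh38.p14), and 4 of the 10 members held them, against 1061 of 27305 gene symbols (3.89%). The members had 1 to 3 starts each, all symbols together 35116, and each further start adds a chance of a match. Motif and members were both picked for their tie to ATF4, so the share is background only. Capitals mark the match, and all are written 5′ to 3′ on the strand of the gene.
CHAC1: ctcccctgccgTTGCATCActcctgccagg
ASNS: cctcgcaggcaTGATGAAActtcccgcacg
CEBPG: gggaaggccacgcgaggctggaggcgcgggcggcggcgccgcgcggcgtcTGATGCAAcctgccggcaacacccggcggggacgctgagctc
ATF3: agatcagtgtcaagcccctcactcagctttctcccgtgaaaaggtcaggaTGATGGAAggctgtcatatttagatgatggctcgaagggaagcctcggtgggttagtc

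The CHAC1 stretch is chr15:40953251-40953280 on the plus strand, and its match begins 209 bases before the only RefSeq start and reads as TGATGCAA on the other strand. The ASNS stretch is chr7:97872458-97872487 on the minus strand, with the match 68 bases before the upstream start and 311 bases before the downstream one. The CEBPG stretch is chr19:33374021-33374112 on the plus strand. It lies 42 bases before the second of its RefSeq starts, and thus 362 bases past the first. The ATF3 stretch is chr1:212565166-212565273 on the plus strand, 191 bases before the far upstream start. These RefSeq starts are not always those of the isoforms in the table. GENCODE release 29 begins NM_001674, the main ATF3 isoform, at 212608670, and the bases before that position were not searched. The ATF3 isoform NM_001030287, begun at 212565334 past the match, had only 0.00228 FPKM in the LPA library and 0.000789 FPKM in the control library. GENCODE begins the CEBPG isoform NM_001806 at 33373330, so that the CEBPG letters lie past its start. The CEBPG isoform NM_001252296, begun at 33374312 past those letters, had only 0.000279 FPKM in the LPA library and 0 in the control library. For ASNS GENCODE begins NM_001673 at 97872471, inside the match, and NM_001178077 at 97872113, with the match ahead of that start. TRIB3, a member without a match, is also affected. Its RefSeq starts are 381295 to 381343, while GENCODE begins NM_021158 and NM_001301188 at 380617. The bases before 380617 were not searched for any of the motifs.

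None of the 10 members held the full cAMP response element TGACGTCA, which 2.03% of all symbols held. None held the C/EBP palindrome TTGCGCAA (0.146% of symbols) or the endoplasmic reticulum stress element, CCAAT and CCACG with 9 bases between (0.0916%). A match is only a stretch of letters, and a site outside the 250 bases was not looked for.

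Levels are FPKM, estimated fragments scaled by transcript length and library size, summed over the isoforms of a gene. ATF4 had 730 FPKM in the LPA library and 449 FPKM in the control library, which placed it at rank 136 by level in the LPA library and rank 192 in the control library. ASNS, which makes asparagine from aspartate and glutamine, came next among the members with 160 FPKM in the LPA library, against 86.3 FPKM in the control library. The order below that differed between the libraries only at its low end. After ASNS came CEBPB (LPA 71.3, control 74.1 FPKM), TRIB3 (LPA 53.5, control 33.7 FPKM) and ATF5 (LPA 26.4, control 24.4 FPKM), in this order in both. CEBPG, DDIT3 and CHAC1 lay within 1 FPKM of each other in the LPA library, at 19.7, 19.4 and 19.0 FPKM. In the control library they were spread over 11.9, 16.9 and 4.53 FPKM, with CHAC1 the lowest of the 9 measured members, whereas in the LPA library ATF3 was the lowest (13.1 FPKM, against 10.1 FPKM in the control library).

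**Figure D1:**
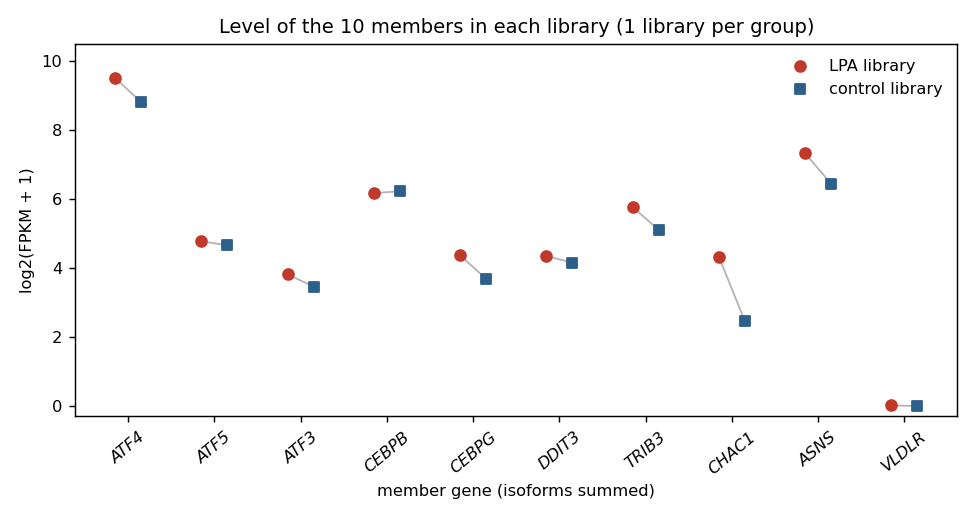
Level of each member as log2(FPKM + 1), isoforms summed, in the LPA library (circles) and the control library (squares); lines join the 2 values of a gene. CHAC1 has the steepest line (LPA 19.0, control 4.53 FPKM), CEBPB and ATF5 are nearly level, and VLDLR lies at or near 0 in both (LPA 0.0173, control 0 FPKM).

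Among the members, CHAC1, ASNS, ATF4, CEBPG and TRIB3 were at least 1.5-fold higher in the LPA library, and ATF3, DDIT3, ATF5 and CEBPB were within 1.5-fold. A log2 ratio here divides the LPA by the control value after adding 1 to both FPKM, so that it is too small for genes with low FPKM. Of the 10 members 9 had a mean of at least 1 FPKM, each reaching it in both libraries, and VLDLR did not. Of the 9, 8 had a log2 ratio above 0, where 50.2% of the 11686 genes with such a mean did. At least 1.5-fold higher were 5 of the 9 (1.45% of all genes), at least 1.5-fold lower were 0 (1.54% of all genes), and at least 2-fold higher was 1, CHAC1 (0.351% of all genes). The median log2 ratio was 0.65 over these members and 0.0009 over all genes. Since the members were picked with this contrast known, the shares stand beside the counts as background only. When the isoform with the highest mean stood for each gene, 3 members were at least 1.5-fold higher (3.96% of all genes in that setting) and the median was 0.34, because ASNS and TRIB3 then had log2 ratios of 0.43 and 0.12. Their next isoforms, NM_001178077 and NM_001301188, were close behind in mean FPKM and had log2 ratios of 1.45 and 1.19.

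**Figure D2:**
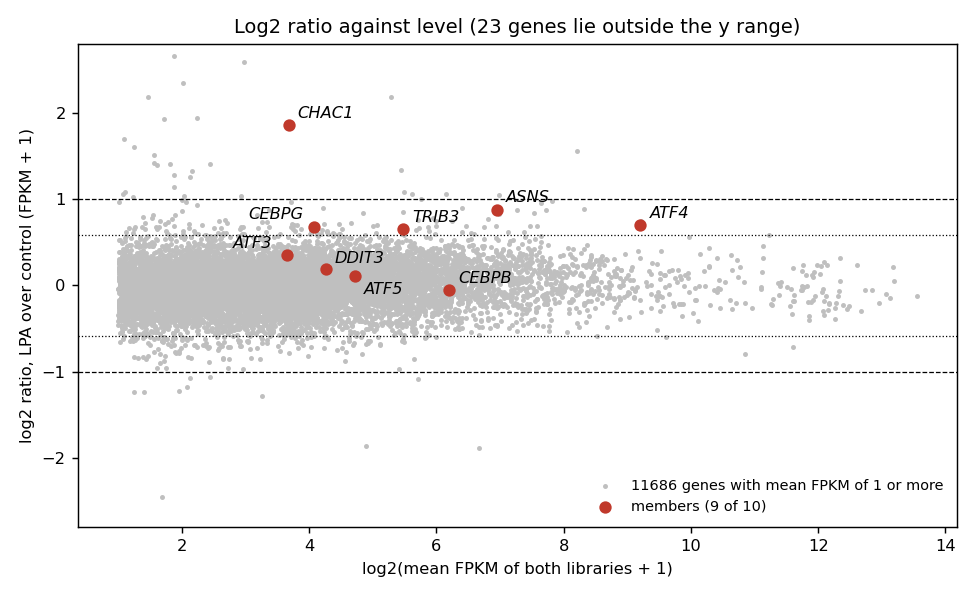
Log2 ratio of the LPA over the control library against log2(mean FPKM + 1) for 11686 genes (grey) and 9 members (red); dashed lines mark 2-fold and dotted lines 1.5-fold differences, and 23 genes lie beyond the y axis. CHAC1 is the member past the upper dashed line (1.86), ATF4, ASNS, CEBPG and TRIB3 lie between the upper dotted and dashed lines, and ATF3, DDIT3, ATF5 and CEBPB lie within the dotted lines.

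Taking the activator first, ATF4 on chromosome 22 (39520559 to 39522686, hg38) had a log2 ratio of 0.70 and an FPKM fold of 1.62. Its rank by log2 ratio was 90 of 11686 genes. About 16353 fragments in the LPA library and 10835 in the control library stood behind these values, as estimated from the lowest FPKM steps, and the counting interval of the fold was 1.59 to 1.66 (95%, exact conditional binomial). Intervals of this kind cover counting error only, and hold nothing of the variation between cultures. Among 50 bZIP genes, 6 of them members, ATF4 made up 42.5% of the summed FPKM in the LPA library and 30.9% in the control library. RefSeq lists 4 pseudogenes of ATF4, with which it can share reads.

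Both ATF4 isoforms in the table begin at the same start site and, by GENCODE release 29, hold the same coding length of 1053 nt, with 3 exons in NM_182810 and 2 in the longer NM_001675. NM_182810 (1420 nt) carried the gene, with 720 FPKM in the LPA library and 440 FPKM in the control library. That was 98.7% of ATF4 FPKM in the LPA library and 98.1% in the control library. NM_001675 had 9.39 FPKM in the LPA library and 8.69 FPKM in the control library. The deposited bounds of NM_182810, whose level the file does not state, were 513 to 928 FPKM in the LPA library and 315 to 565 FPKM in the control library, so they overlapped.

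The 3 genes nearest to ATF4 in level in both libraries at once (Euclidean distance in log2(FPKM + 1) over 2 libraries) were KRT18, EIF4A1 and EEF1D. KRT18, an epithelial keratin gene, had 741 FPKM in the LPA library and 442 FPKM in the control library. EIF4A1 and EEF1D, of translation initiation and elongation, had lower log2 ratios of 0.40 and 0.32.

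ATF5, the closest relative of ATF4, encodes a bZIP activator whose mRNA is also translated under eIF2 phosphorylation. Its log2 ratio was 0.11, with a counting interval of 0.985 to 1.19 for the FPKM fold, which includes 1. The isoform NM_001193646 held 94.2% of its FPKM in the LPA library and 93.7% in the control library. ATF5 overlaps NUP62 and IL4I1 on chromosome 19, and reads were not marked by strand. NUP62, a nuclear pore gene, had 26.6 FPKM in the LPA library and 23.6 FPKM in the control library. How reads were split between the overlapping genes was not tested.

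ATF3, a bZIP factor that ATF4 can induce and that feeds back on stress genes, had a log2 ratio of 0.35 and rank 772. Its fold of 1.30 had a counting interval of 1.13 to 1.51. It lies on chromosome 1 (212565334 to 212620777) and the table gives it 7 isoforms, of which NM_001674 carried 86.1% of the FPKM in the LPA library and 86.7% in the control library. NM_001674 had 11.3 FPKM in the LPA library and 8.72 FPKM in the control library. NM_001206488, a form with a shorter coding length (372 nt against 543 nt in GENCODE), had 1.07 FPKM in the LPA library and 0.714 FPKM in the control library. The mix of ATF3 isoforms was thus nearly the same in both.

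The C/EBP partners differed from each other. CEBPG, a C/EBP protein that lacks an activation domain of its own and pairs with ATF4, had 19.7 FPKM in the LPA library and 11.9 FPKM in the control library, a log2 ratio of 0.68 (rank 102). Its fold of 1.65 had a counting interval of 1.51 to 1.81. ATF4 and CEBPG had almost the same fold, so the ratio of ATF4 to CEBPG FPKM was 37.1 in the LPA library and 37.7 in the control library. All but a trace of CEBPG came from NM_001806, whose deposited bounds were 14.3 to 25.1 FPKM in the LPA library and 8.56 to 15.3 FPKM in the control library and overlapped by a small margin.

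CEBPB, a C/EBP activator of inflammatory and differentiation genes that also pairs with ATF4, had a log2 ratio of -0.05. The table gives it 1 isoform, and the counting interval of its fold of 0.963 was 0.91 to 1.02, which includes 1 as well. CEBPB was the largest of the 5 C/EBP genes CEBPA, CEBPB, CEBPD, CEBPE and CEBPG, with 66.4% of their summed FPKM in the LPA library and 71.8% in the control library. CEBPG held 18.3% of that sum in the LPA library and 11.5% in the control library. The antisense gene CEBPB-AS1 shares the locus but had 0.182 FPKM in the LPA library and 0.164 FPKM in the control library.

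DDIT3 encodes CHOP, a C/EBP-like protein induced by ATF4 in prolonged stress and linked to cell death. It had 19.4 FPKM in the LPA library and 16.9 FPKM in the control library. The fold of 1.15 had a counting interval of 0.973 to 1.36, which includes 1, so a difference was not detectable at this depth (about 289 fragments in the LPA library and 276 in the control library). The ratio of ATF4 to DDIT3 FPKM was 37.6 in the LPA library and 26.6 in the control library. DDIT3 overlaps the methionyl-tRNA synthetase gene MARS (MARS1 in RefSeq), which had 79.0 FPKM in the LPA library and 46.8 FPKM in the control library. How reads without strand were split between them was not tested.

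The table splits DDIT3 into 6 isoforms with 1 shared start site, and all their lower bounds were 0. NM_004083 had 12.3 FPKM in the LPA library and 10.7 FPKM in the control library. NM_001195057 had 3.77 FPKM in the LPA library and 2.05 FPKM in the control library, while NM_001195056 had 2.65 FPKM in the LPA library and 3.93 FPKM in the control library. The isoforms are 897 to 1178 nt long and differ little, so their separate values are uncertain.

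TRIB3 is a pseudokinase that ATF4 and CHOP induce and that binds ATF4 in a feedback loop. It had 53.5 FPKM in the LPA library and 33.7 FPKM in the control library (log2 ratio 0.65, rank 118, fold 1.59, counting interval 1.48 to 1.71). The difference in listed FPKM was not even across its start groups. Isoforms from the first start group, which holds NM_021158 alone, had 22.7 FPKM in the LPA library and 20.8 FPKM in the control library. Isoforms from the other start group together had 30.8 FPKM in the LPA library and 12.9 FPKM in the control library, a log2 ratio of 1.20. GENCODE, however, gives 380617 as the start for both NM_021158 and NM_001301188, the main isoform of the other group. How reads were split between the start groups was not tested.

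By listed FPKM the leading TRIB3 isoform was therefore another one in each library. NM_001301188 (1980 nt) held 54.7% of the FPKM in the LPA library and 36.4% in the control library, and NM_021158 (2487 nt) held 42.4% in the LPA library and 61.7% in the control library. The deposited bounds of NM_001301188 were 18.0 to 40.5 FPKM in the LPA library and 6.24 to 18.3 FPKM in the control library, which overlapped by a narrow margin. TRIB1 and TRIB2, the other genes of the Tribbles family, had log2 ratios of 0.02 and 0.09, with TRIB1 at 155 FPKM in the LPA library and 153 FPKM in the control library.

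CHAC1, a cyclotransferase that breaks down glutathione and is a target of ATF4, had the largest log2 ratio of the members. It lies on chromosome 15 (40953438 to 40956519) and had 19.0 FPKM in the LPA library and 4.53 FPKM in the control library, from about 461 fragments in the LPA library and 118 in the control library. Its FPKM fold was 4.20 with a counting interval of 3.42 to 5.19, and its rank was 18. Both isoforms, which share 1 start site, differed the same way. NM_024111 had 16.9 FPKM in the LPA library and 4.27 FPKM in the control library, and its deposited bounds did not overlap (LPA 11.7 to 22.2, control 2.67 to 5.87 FPKM). NM_001142776 had 2.10 FPKM in the LPA library and 0.262 FPKM in the control library, and its bounds overlapped. CHAC2, the other enzyme of that family, was lower, with 3.04 FPKM in the LPA library and 3.95 FPKM in the control library.

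ASNS, asparagine synthetase on chromosome 7 (97852117 to 97872542), is a much used marker of the amino acid response. It had 160 FPKM in the LPA library and 86.3 FPKM in the control library, a log2 ratio of 0.88 with rank 52. Its fold of 1.85 had a counting interval of 1.77 to 1.94. As in TRIB3, the start groups differed in size of difference by listed FPKM. Isoforms of the downstream start had 83.4 FPKM in the LPA library and 33.5 FPKM in the control library (log2 ratio 1.29). Those of the upstream start had 76.3 FPKM in the LPA library and 52.8 FPKM in the control library (log2 ratio 0.52).

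By listed FPKM its leading isoform also differed between the libraries. NM_001178077, from the downstream start, held 52.2% of ASNS FPKM in the LPA library and 34.6% in the control library. It had 83.4 FPKM in the LPA library and 29.8 FPKM in the control library, with bounds that did not overlap (LPA 50.3 to 116, control 14.8 to 44.9 FPKM). NM_001673, from the upstream start, had 69.1 FPKM in the LPA library and 51.1 FPKM in the control library, with bounds that overlapped (LPA 42.0 to 96.2, control 33.6 to 68.6 FPKM). Within each library the bounds of these 2 isoforms overlapped, so which one leads is not settled. GENCODE gives a coding length of 1434 nt for the transcript it pairs with NM_001178077 and 1683 nt for that of NM_001673. NM_183356, which has the full coding length, had 6.31 FPKM in the LPA library and 0.808 FPKM in the control library. NM_133436 was listed at 0 in the LPA library and had 3.70 FPKM in the control library, with a lower bound of 0. RefSeq lists 5 pseudogenes of ASNS, and ASNSD1, a gene for a related protein, was lower at 21.1 FPKM in the LPA library and 25.5 FPKM in the control library.

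**Figure D3:**
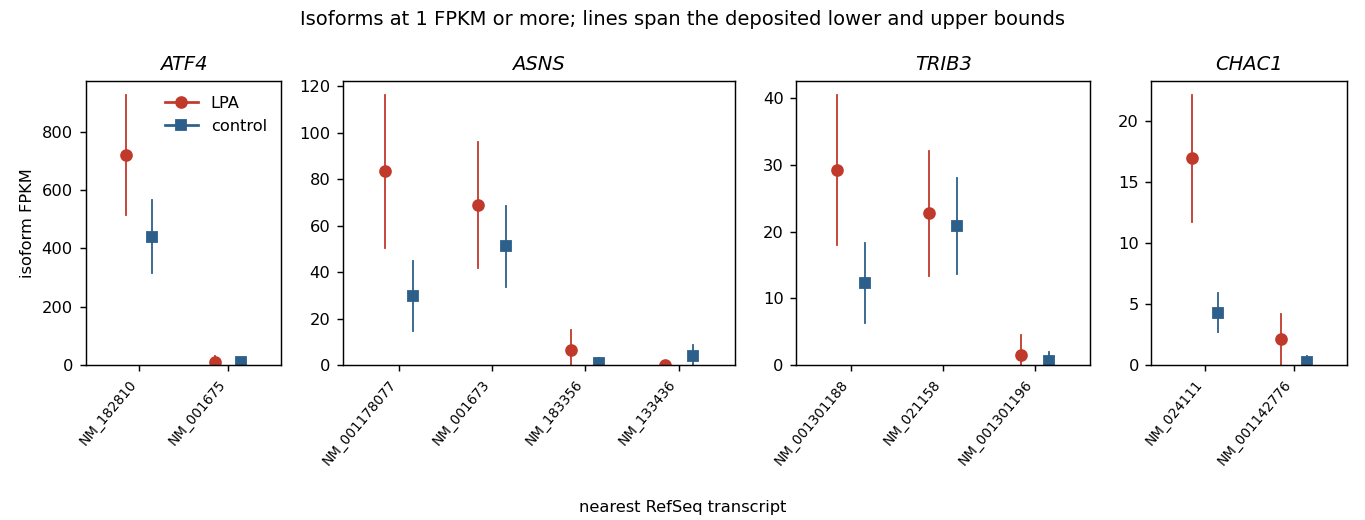
FPKM of the isoforms of ATF4, ASNS, TRIB3 and CHAC1 with at least 1 FPKM in either library, for the LPA library (circles) and the control library (squares); vertical lines span the deposited bounds, whose level is not stated, and each panel has its own FPKM axis. The lines are apart for NM_001178077 of ASNS and NM_024111 of CHAC1, and overlap for the other isoforms drawn.

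Over all members the table holds 37 isoforms, of which 19 had at least 1 FPKM in either library. The deposited bounds were separate for 2 of those 19, the ASNS and CHAC1 isoforms named above, and for 6.73% of the 18585 isoforms in the table at that level. By listed FPKM, leading isoforms differed between the libraries for 2 of the 9 measured members, ASNS and TRIB3. The share of all genes with such a change was not counted, so no trait of the members is read from this. For both genes the bounds of the competing isoforms overlapped within each library. Of the 37, 7 were listed at 0 in both libraries and 1, of ATF3 and also listed at 0, had a splice pattern that is not in RefSeq.

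VLDLR, the very low density lipoprotein receptor and a known target of ATF4, was hardly present in the table. It was listed at 0.0173 FPKM in the LPA library, about the worth of 1 fragment, and at 0 in the control library, so no fold is given. Both VLDLR isoforms also had an upper bound of 0 in the control library, whereas the other 9 member isoforms listed at 0 there had upper bounds above 0, and a listed 0 need not mean absence. Among its relatives LRP8, which like VLDLR is a receptor for reelin, had 6.47 FPKM in the LPA library and 4.92 FPKM in the control library. Of 14 measured relatives of TRIB3, CHAC1, ASNS and VLDLR, 7 were above 0 (50.2% of all genes), with a median of 0.0083. None of them was 1.5-fold apart (of all genes 1.45% were higher and 1.54% lower by that much).

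Of the members, 6 encode bZIP proteins, and 5 of these were above 0 (50.2% of all genes), with a median log2 ratio of 0.27. Of the 6, 2 were at least 1.5-fold higher, ATF4 and CEBPG (1.45% of all genes). The counting intervals of ATF5 and DDIT3 included 1. Of 44 other bZIP genes 33 were measured, with 15 above and 18 below 0 and a median log2 ratio of -0.10. Of these 33, 2 were at least 1.5-fold higher. FOSL1, an AP-1 subunit, had 77.9 FPKM in the LPA library and 48.1 FPKM in the control library. JDP2, a repressor that binds AP-1 and CRE sites, had 4.55 FPKM in the LPA library and 2.65 FPKM in the control library. ATF2, a CRE-binding factor activated by stress kinases, was lowest, with 5.67 FPKM in the LPA library and 8.37 FPKM in the control library. ATF1 (LPA 7.12, control 8.34 FPKM), ATF7 (LPA 4.34, control 5.90 FPKM) and CREB1 (LPA 2.90, control 3.83 FPKM) were also lower in the LPA library. None of the 33 was 1.5-fold lower. Other relatives were higher in the LPA library, among them CREB3 (LPA 20.9, control 18.5 FPKM), CREM (LPA 7.68, control 7.05 FPKM) and CREB3L2 (LPA 4.72, control 4.13 FPKM).

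The kinases that act above ATF4 were close between the libraries. None of the 16 genes of eIF2 kinases and regulators was 1.5-fold apart, and 10 were above 0 (50.2% of all genes) with a median of 0.18. Of all genes 1.45% were at least 1.5-fold higher and 1.54% lower, so a count of 0 says little about this list. EIF2AK4 (GCN2, the sensor of uncharged tRNA) had 6.47 FPKM in both, EIF2AK3 (PERK, the sensor in the endoplasmic reticulum) had 2.44 FPKM in the LPA library and 1.92 FPKM in the control library, and EIF2AK1 (HRI, the heme-regulated kinase) had 44.5 FPKM in the LPA library and 39.0 FPKM in the control library. EIF2AK2 had 3.49 FPKM in the LPA library and 3.40 FPKM in the control library. These kinase genes were named outside the rule for named genes, after their values were seen. Phosphorylation of eIF2 was not measured.

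The targets below ATF4 are given by role, in lists chosen with earlier results of these data known. Over all measured genes 50.2% were above 0 and 1.45% at least 1.5-fold higher. Of 21 genes of amino acid synthesis and transport 18 were measured, 15 of them above 0, with 6 at least 1.5-fold higher and a median of 0.42. The 3 below 0, named outside the rule for named genes, were SLC38A2 (LPA 196, control 228 FPKM), CTH (LPA 4.76, control 5.36 FPKM) and PSPH (LPA 19.9, control 20.9 FPKM). The transporter genes SLC7A5 (LPA 170, control 81.8 FPKM) and SLC3A2 (LPA 271, control 148 FPKM), the serine synthesis gene PSAT1 (LPA 70.8, control 34.9 FPKM) and the alanine transaminase gene GPT2 (LPA 15.7, control 9.31 FPKM) had the highest ratios among genes of this list with a mean of at least 5 FPKM. The list of cytosolic aminoacyl-tRNA synthetases and tRNA export holds 14 genes, and leaves out other synthetases of the class. All 14 listed genes were above 0 and 7 at least 1.5-fold higher, with a median of 0.53. They were led by GARS (LPA 95.2, control 45.0 FPKM), CARS (LPA 56.1, control 30.6 FPKM), YARS (LPA 65.2, control 38.0 FPKM) and MARS, the synthetase genes for glycine, cysteine, tyrosine and methionine.

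The list of stress output of ATF4 and CHOP had a median of 0.14, with 12 of 16 measured genes above 0 (50.2% of all genes) and 3 at least 1.5-fold higher (1.45% of all genes). These were STC2, a secreted glycoprotein gene (LPA 12.4, control 6.28 FPKM), EIF4EBP1, a repressor of cap-dependent translation (LPA 160, control 90.3 FPKM), and HERPUD1, of endoplasmic reticulum degradation (LPA 26.0, control 16.8 FPKM). Genes of the ATF6 and XBP1 branches, which also answer endoplasmic reticulum stress, had a median of 0.09 with 10 of 16 above 0 (50.2% of all genes). Only SDF2L1, a chaperone cofactor of that compartment, was 1.5-fold higher among them (LPA 111, control 73.0 FPKM). HSPA5, named outside the rule for named genes, came next with a log2 ratio of 0.55, a little below that limit (LPA 145, control 99.1 FPKM). Of 9 mitochondrial unfolded protein response genes, which ATF5 is known to regulate, 7 were above 0 (50.2% of all genes), with a median of 0.28. None of them was 1.5-fold apart (of all genes 1.45% were higher and 1.54% lower by that much). The 16 reference genes were even, 8 above and 8 below 0, with a median of 0.0048, and B2M was the 1 gene 1.5-fold apart (LPA 619, control 935 FPKM).

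**Figure D4:**
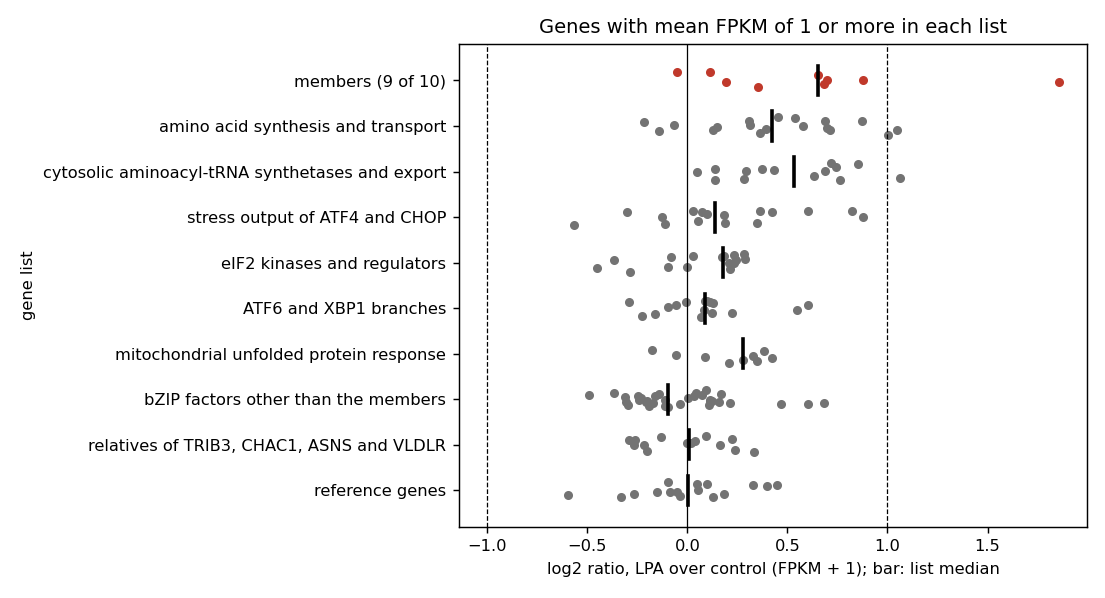
Log2 ratio of the LPA over the control library for each measured gene (points) by list, with the list median as a black bar; points are spread vertically for sight only, and XBP1 and ATF6 stand in 2 lists. The medians are 0.65 for the members, 0.53 for the listed synthetases and tRNA export, 0.42 for amino acid genes and -0.10 for the other bZIP factors, and CHAC1 is the point farthest right.

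Over the whole table the LPA library summed to 708746 FPKM and the control library to 717274 FPKM, and the low FPKM steps put the depth at about 15700000 fragments for the LPA and 16900000 for the control library. Of 6 colorectal epithelial markers 5 had a mean of at least 1 FPKM, and VIL1 was listed at 0 in both libraries. The 6 summed to 2493 FPKM in the LPA library and 1891 FPKM in the control library, most of it KRT8 (LPA 1507, control 1208 FPKM) and KRT18, and whether this has a part in the members' values was not tested. Markers of other cell types summed to 4.32 FPKM in the LPA library and 5.78 FPKM in the control library for fibroblasts (6 genes, nearly all COL1A1). For immune cells they came to 3.34 FPKM in the LPA library and 3.09 FPKM in the control library (6 genes, nearly all CD68), and for endothelium to 0.121 FPKM in the LPA library and 0.105 FPKM in the control library (4 genes). DCN, LUM and PTPRC were at 0 in both. With 1 library in each group, the treatment and any other difference between the 2 cultures or libraries cannot be told apart.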

How the data were processed

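Poly-A RNA libraries of HCT-116 cells, 1 per group, were compared. Per the labels' protocols, RNA from Trizol went into the TruSeq V2 kit, a chemistry that keeps no strand. Tools named in the submitters' processing notes are TopHat2 2.0.12, Cuffdiff 2.2.0, Cufflinks and, for demultiplexing, bcl2fastq 2.16.0.10, and the build is hg38. How libraries were scaled is not given in those notes. The authors deposited FPKM, with lower and upper bounds and a status, for 63236 isoforms, per the file headers. The other deposited columns used were transcript length in nt, for fragment numbers, and status, as a filter.

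FPKM of isoforms with status OK in both libraries were summed per symbol (27 isoforms, none of a member, were left out). Log2 ratios used a pseudocount of 1, and genes counted as measured at a mean FPKM of 1 or more. Fragment numbers are FPKM times length divided by the worth of 1 fragment, read from the lowest values of genes with 1 isoform over 2000 nt. They are approximate and run high for short isoforms. The ratio and depth steps were run on simulated counts turned into FPKM by the same formula. Such a run checks the code only, and cannot check the fragment numbers of the deposited FPKM. Promoter sequences are from RefSeq (GRCh38.p14, all 10 members matched) and were cut to 30 bases where the stretch met a GENCODE exon. Python 3.11.15, pandas 2.3.3 and scipy 1.17.1 were used.

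The members, gene lists and motifs were chosen with earlier results of these data known. All members are named, and of each list the genes at least 1.5-fold apart at mean FPKM of 5 or more, at most 4 by size. The lists of bZIP factors and relatives allowed any gene with a mean of 1 FPKM or more. Alternatives changed the pseudocount, scaling, isoforms and filter.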

Additional observations from a re-analysis of the deposited data

How the results depend on the processing

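Across 11 alternative settings the count of members at least 2-fold higher was 1 each time, and the count above 0 was 8 or, without a filter on low values, 9. With each gene taken by its leading isoform, 3 members were at least 1.5-fold higher and the median log2 ratio was 0.34. That setting drops isoforms by construction, and 3.96% of all genes were then at least 1.5-fold and 1.07% at least 2-fold higher. For ASNS and TRIB3 the choice of isoform was close to a tie in mean FPKM. With no filter on low values VLDLR joined the members and the median was 0.50. No member changed the sign of its log2 ratio in 9 settings. A pseudocount of 5 gave CHAC1 a log2 ratio of 1.33 and CEBPG 0.55, below the 1.5-fold limit, and a pseudocount of 0.1 gave CHAC1 2.05. Centring on the reference genes moved ratios by 0.0048 and scaling to equal sums moved the median of all genes to 0.02. No paired analysis was possible because each group has 1 library. Depth limits members with few estimated fragments, such as CHAC1 (461 in the LPA library, 118 in the control library) and DDIT3 (289 in the LPA library, 276 in the control library), and isoforms with a lower bound of 0.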
